A study of Mus musculus with 11 samples.

Results

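Mice designed to lose Runx1 from muscle fibres were compared with controls in muscle that kept its nerve. The comparison used 5 of the 11 arrays of the series: 2 of innervated tibialis anterior from mutant mice and 3 of innervated tibialis anterior from control mice, taken by their sample titles. Control mice were runx1f/-, with 1 floxed and 1 null allele of Runx1, and mutant mice were runx1f/-; MCK::cre. Both genotypes therefore lacked 1 allele throughout the body, and the mutants alone carried Cre, so that an effect of Cre itself and an effect of the deletion cannot be told apart. The labels give neither age nor strain. The other 6 arrays, 3 per genotype, held muscle labelled as denervated for 3 days and entered the fit for its estimate of the spread. Total RNA of whole muscle was hybridised to Affymetrix arrays with 45037 probe sets beside the array's own controls. Of these, 26170 read above the median of their array on at least 2 of the 11 arrays and were tested, and 12214 genes were each represented by their brightest tested probe set.

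RUNX1 is a DNA-binding transcription factor that pairs with CBFB and can activate or repress its targets, in part through co-repressors of the TLE family. It is best known from the formation of blood cells. In skeletal muscle it is scarcely expressed while the nerve is present and is induced strongly once the nerve is cut, when it limits wasting of the fibre. The muscle creatine kinase promoter, which drives MCK::cre, is active in muscle fibres, so blood vessels, connective tissue, nerve and immune cells of the same muscle would keep the floxed allele. The comparison sets whole innervated muscle of mice with MCK::cre beside that of mice without it.

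No probe set passed the threshold, an adjusted p of 0.05 from limma's moderated test with Benjamini-Hochberg adjustment over 26170 probe sets: 0 were called (0.0%). At an unadjusted p below 0.05 there were 1030 probe sets (3.94%) and 461 genes (3.77%), of which 203 (1.66%) read higher and 258 (2.11%) lower in the mutant. The smallest adjusted p was 0.15, shared by Ptprc, the leukocyte surface phosphatase CD45, and by a probe set without a single gene symbol. The absence of calls is bounded by the precision of 2 against 3 arrays. For 9625 genes (78.8%) the 95% interval of the genotype difference lay within 2-fold either way, and for 5002 (41.0%) within 1.5-fold. That share rose with signal, from 32.4% within 2-fold in the dimmest of 4 equal groups of genes to 88.6%, 96.6% and 97.6% in the next brighter groups. For the other genes the interval reached past 2-fold in at least 1 direction. The labels do not say that the arrays of a group came from separate mice, and p-values measure the spread between these samples.

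**Figure D1:**
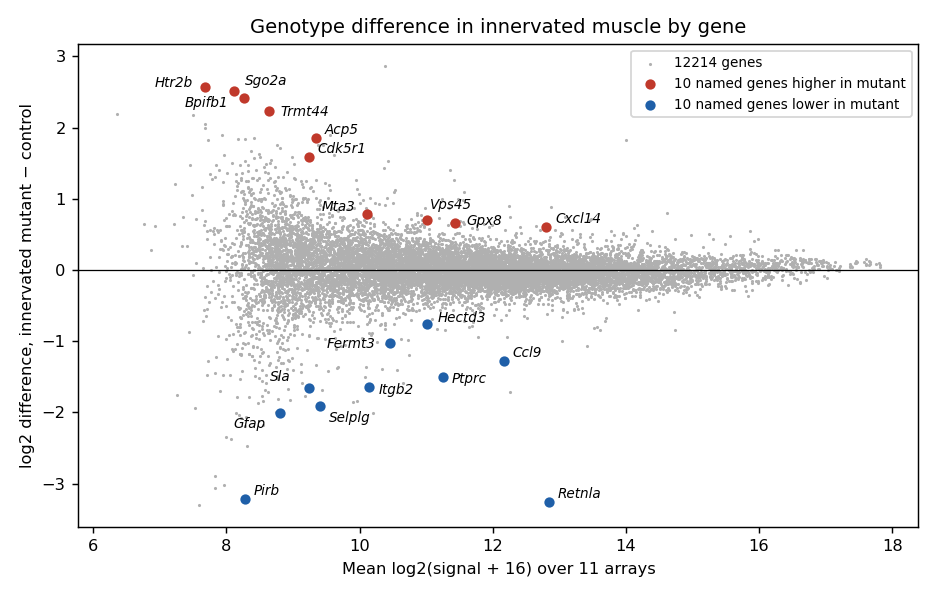
Each grey point is 1 of 12214 genes, with its mean log2(signal + 16) over 11 arrays on the x axis and its log2 difference between innervated mutant and control muscle on the y axis. The 10 genes of smallest p in each direction whose groups did not overlap are red (higher) and blue (lower). The cloud of all genes narrows around 0 as signal rises.

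The arrays themselves were about as alike across genotypes as within one. Over the tested probe sets, the 6 pairs of a control and a mutant array correlated at 0.944 to 0.966, the 3 pairs of control arrays at 0.943 to 0.964, and the pair of mutant arrays at 0.957. The median signal was 536 and 605 on the mutant arrays and 506 to 529 on the control arrays, groups that did not overlap (exact two-sided permutation p = 0.1, the smallest that 2 against 3 arrays allow). Since the authors had set all arrays to 1 trimmed mean, dividing by the median instead moved the median difference of all genes from -0.00 to -0.13 on the log2 scale. Among the 582 genes at an unadjusted p below 0.05 under that scaling, 14.8% read higher in the mutant, against 44.0% as deposited and 30.2% after quantile normalization. Differences between genotypes of about that size have no settled sign.

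Runx1 itself read low in innervated muscle of both genotypes. The probe set that was brightest over all 11 arrays read 505, 519 and 179 on the control arrays and 288 and 395 on the mutant arrays, a log2 difference of -0.10 ± 0.34 (SE). The 2 groups overlapped, and the mean of the lower group lay within the range of the array's bacterial negative controls, 13.8 to 440.0, where signal cannot be separated from background. In denervated muscle the same probe set read 24583 ± 1216 in controls and 21346 ± 1593 in mutants (SD, n = 3 each). On the innervated arrays alone 2 other probe sets of Runx1 were brighter, with both group means above that range. The first read 1032, 1116 and 818 in controls and 1304 and 1724 in mutants, a difference of 0.60 ± 0.28 with an adjusted p of 0.998 by limma, and its groups did not overlap. The second read 776, 418 and 670 against 542 and 528, a difference of -0.16 ± 0.38 with overlapping groups. The remaining 3 differed by -0.78 to 0.38, overlapped, and had a lower mean within the range of the negative controls. Which exons the probes cover relative to the deleted part is not known here, so these levels do not test the deletion.

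Partners of RUNX1 were measured more precisely. Cbfb, the shared beta subunit, read 37273, 35889 and 30004 in controls and 36433 and 36824 in mutants, and its 95% interval ran from -0.27 to 0.46 on the log2 scale. Of 13 tested genes in a list of RUNX partners and co-repressors, all had an interval within 2-fold, against 78.8% of all genes. That share rose with signal, from 32.4% in the dimmest group of genes to 97.6% in the brightest. The list was not compared with genes of equal signal, so its share cannot be told apart from an effect of brightness. At an unadjusted p below 0.05, 2 of the 13 read lower, against 2.11% of all genes. The median difference was -0.07 against -0.00 for all genes, and 0.03 without innervated mutant 2. Those 2 were the Groucho-type co-repressors Tle4 and Tle3. Tle4 read 8338, 6175 and 6737 in controls and 5260 and 4850 in mutants, a difference of -0.48 ± 0.18 (adjusted p = 0.998, limma). Its other probe sets gave 0.03 and 0.23, and those of Tle3 gave 0.16 and 0.96, so the direction of neither gene was shared by all of its probe sets.

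Among the genes that read lower in the mutant, Ptprc had the smallest p. It read 2669, 2725 and 3162 on the control arrays and 961 and 1018 on the mutant arrays, a difference of -1.51 ± 0.21 (limma adjusted p = 0.15). Itgb2, the beta chain of leukocyte integrins, read 1161, 1015 and 1360 in controls and 372 and 356 in mutants, a difference of -1.64 ± 0.25 (limma adjusted p = 0.17). In both genes the 2 mutant arrays lay close together. Ccl9, a chemokine of myeloid cells, read 4921, 3035 and 5915 in controls and 1816 and 1836 in mutants, a difference of -1.28 ± 0.27, and its second probe set gave -1.44. Retnla, a secreted protein of alternatively activated macrophages, read 33821, 13916 and 42176 in controls and 3250 and 2437 in mutants, a difference of -3.26 ± 0.65. The controls spread over 3-fold in Retnla.

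On the same side Fermt3, which activates integrins in blood cells, read 1100, 1191 and 1542 in controls and 700 and 536 in mutants, a difference of -1.03 ± 0.22, while its second probe set gave -0.07. Selplg, the P-selectin ligand of leukocytes, differed by -1.91 ± 0.37, Sla, a Src-like adaptor of lymphocytes, by -1.66 ± 0.33, and Pirb, an inhibitory receptor of myeloid and B cells, by -3.22 ± 0.66. Gfap, an intermediate filament of glia and Schwann cells, differed by -2.01 ± 0.37. In those 4 genes and in Itgb2 the mutant mean fell in the range of the negative controls, so their fold is poorly fixed. Hectd3, a ubiquitin ligase, read 2442, 2056 and 2473 in controls and 1324 and 1408 in mutants, a difference of -0.76 ± 0.16, with 0.04 from its second probe set. The limma adjusted p of these 6 genes ran from 0.42 to 0.594. In whole muscle, fewer cells of a type and less RNA per cell cannot be told apart.

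Because RUNX1 binds DNA, the 250 bases before the annotated start of the 20 genes named by smallest p were read for the RUNX core motif TGTGGT and its reverse complement ACCACA. The RefSeq promoter table (build GRCm38.p6) held 15 of them, and 3 carried the motif: Hectd3 and Retnla once each and Fermt3 at 2 places. The 4 sequences below are those 3 and that of Ptprc, the gene of smallest p, in which the motif was absent; they run 5′ to 3′ along the gene's strand, with the motif in capitals.
Ptprc (chr1:138175306-138175555, minus strand): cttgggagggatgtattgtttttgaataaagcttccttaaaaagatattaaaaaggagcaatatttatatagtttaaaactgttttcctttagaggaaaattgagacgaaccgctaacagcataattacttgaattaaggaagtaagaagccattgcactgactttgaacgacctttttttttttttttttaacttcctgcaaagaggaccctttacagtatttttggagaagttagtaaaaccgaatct
Hectd3 (chr4:116995084-116995333, plus strand): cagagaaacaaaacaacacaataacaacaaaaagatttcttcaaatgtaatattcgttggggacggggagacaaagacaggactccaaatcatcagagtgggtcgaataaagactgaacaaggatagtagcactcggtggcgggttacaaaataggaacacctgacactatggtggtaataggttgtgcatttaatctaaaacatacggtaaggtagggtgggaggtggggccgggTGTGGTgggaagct
Retnla (chr16:48842359-48842608, plus strand): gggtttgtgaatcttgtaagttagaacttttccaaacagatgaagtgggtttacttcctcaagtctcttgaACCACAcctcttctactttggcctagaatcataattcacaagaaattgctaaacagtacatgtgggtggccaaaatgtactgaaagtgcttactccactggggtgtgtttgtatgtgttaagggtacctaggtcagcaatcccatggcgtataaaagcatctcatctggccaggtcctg
Fermt3 (chr19:7019470-7019719, minus strand): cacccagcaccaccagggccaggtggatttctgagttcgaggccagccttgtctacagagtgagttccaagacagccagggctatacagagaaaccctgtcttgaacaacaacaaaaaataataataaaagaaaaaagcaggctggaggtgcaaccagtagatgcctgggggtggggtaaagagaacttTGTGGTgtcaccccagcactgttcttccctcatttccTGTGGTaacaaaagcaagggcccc
Over the whole table the motif stood in 4614 of 32851 entries (14.0%), or in 4303 of 27025 genes (15.9%). A match of 6 letters describes the sequence and is no evidence of binding in muscle.

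**Figure D2:**
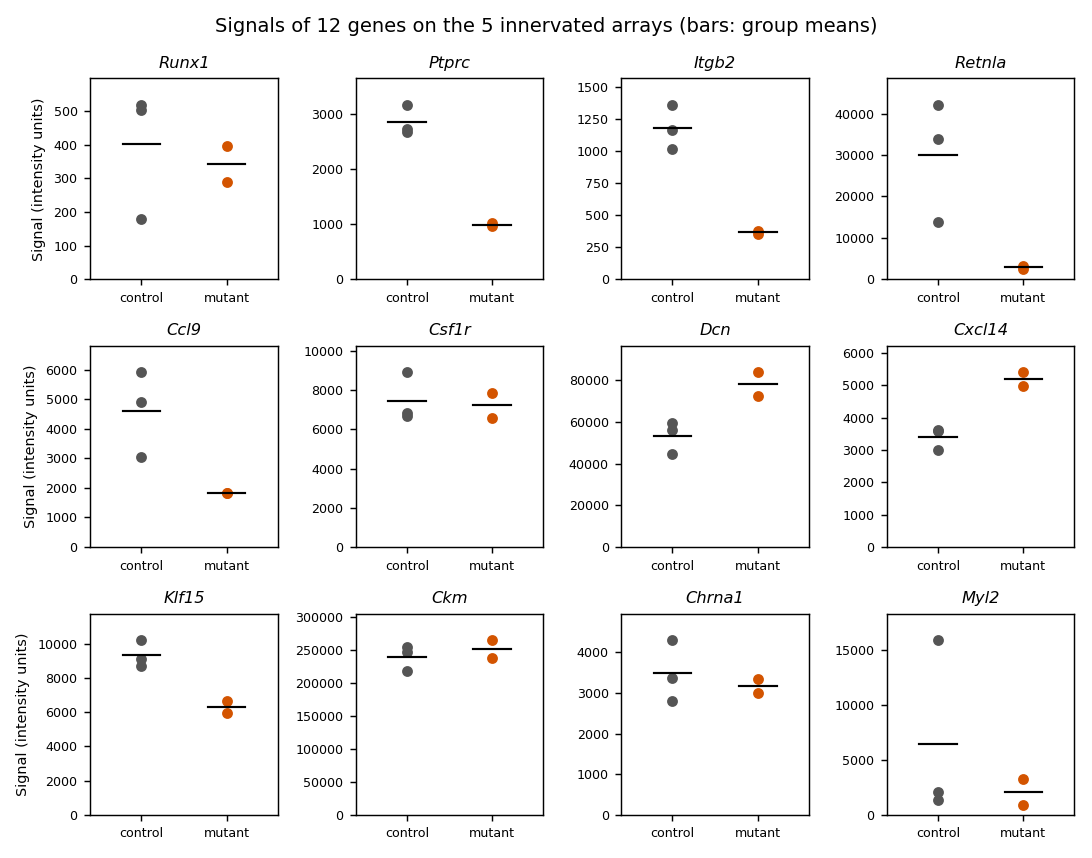
Each panel shows the linear signal of 1 gene on the 3 control (grey) and 2 mutant (orange) innervated arrays, on an axis from 0, with bars at the group means. Ptprc, Itgb2, Retnla, Ccl9 and Klf15 lie lower and Dcn and Cxcl14 higher on both mutant arrays, while Runx1, Csf1r, Ckm, Chrna1 and Myl2 overlap.

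Whether leukocyte genes were lower as a group depended on the gene and on 1 array. Of 21 tested genes in the list of macrophage and leukocyte markers, 16 read lower and 5 higher, and in 8 both mutant arrays lay below every control, against 8.24% of all genes. At an unadjusted p below 0.05 there were 5 lower and 0 higher, against 2.11% and 1.66% of all genes. Lyz2, the lysozyme of macrophages, read 11470, 7972 and 15150 in controls and 6126 and 6646 in mutants, and the protease gene Ctss 3632, 3092 and 4749 against 2615 and 2248. The macrophage receptor Csf1r, in contrast, read 8901, 6818 and 6677 against 6588 and 7871, with an interval of -0.39 to 0.31, and the complement gene C1qa 2507, 1673 and 2287 against 1862 and 2928. Defining macrophage genes were thus measured on both sides of 0. The summed signal of the list ran from 42787 to 55656 in controls and from 35414 to 40144 in mutants, and none of its genes was at 0. The median difference of the list was -0.42 with both mutant arrays and -0.08 without innervated mutant 1. The list of granulocyte and mast cell genes lay on the other side of 0, on fewer and dimmer genes. Of 6 tested genes 4 read higher, and 3 had both mutant arrays above every control, against 7.61% of all genes. Only 1 was higher at an unadjusted p below 0.05, against 1.66% of all genes. That gene was S100a8, a calcium-binding protein of neutrophils, at 158, 169 and 307 in controls and 319 and 373 in mutants, a difference of 0.72 ± 0.33, with every value within the range of the negative controls. The mast cell proteases Mcpt4 and Cma1 differed by 1.57 ± 0.90 and 0.47 ± 0.34. The median of these 6 was 0.60, and 0.0054 without innervated mutant 2.

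Genes of antigen presentation and the interferon response also read mostly lower, 16 of 17 against 6113 of 12214 among all genes, with a median of -0.33. At an unadjusted p below 0.05 there were 5 lower, against 2.11% of all genes. The largest difference was that of Tap1, a peptide transporter of the class I pathway, which read 800, 586 and 490 in controls and 341 and 144 in mutants. It differed by -1.40 ± 0.43, with a mutant mean in the range of the negative controls. Of the class II genes, H2-Aa read 14359, 7425 and 16582 in controls and 5779 and 5685 in mutants, a difference of -1.07 ± 0.31, and its other probe sets gave -0.82 and -0.93. Cd74, the class II invariant chain, read 12636, 6408 and 9106 against 4334 and 4745, a difference of -0.99 ± 0.30. The class I gene H2-K1 stood apart on a single control array: it read 33646 in innervated control 1 and 10379 and 10669 in the other controls, against 11968 and 12879 in mutants. The median of the list was -0.12 without innervated control 1, and -0.61, -0.52 and -0.61 without innervated control 2, innervated control 3 and innervated mutant 2. None of these genes passed the threshold, and all had an adjusted p of 0.998 by limma.

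On the higher side, the genes of smallest p were of mixed kinds. Cxcl14, a chemokine of fibroblasts and muscle, read 3579, 3008 and 3613 in controls and 5396 and 4965 in mutants, a difference of 0.61 ± 0.15 (limma adjusted p = 0.94). Its second probe set gave 0.75, and in denervated muscle the genotypes differed by 0.74 ± 0.13 (limma adjusted p = 0.0118), with the same sign. Gpx8, a peroxidase of the endoplasmic reticulum, read 1615, 1367 and 1482 against 2238 and 2470, a difference of 0.66 ± 0.17. Vps45, a protein of endosomal membrane fusion, read 1405, 1019 and 1373 against 1997 and 2099, a difference of 0.70 ± 0.18, and Mta3, a subunit of a chromatin-remodelling complex, differed by 0.78 ± 0.21. Both mutant arrays lay above every control in these 4 genes by the rule that chose them. Another Mta3 probe set gave -0.90. The other 6 named genes, Sgo2a, Bpifb1, Cdk5r1, Trmt44, Acp5 and Htr2b, differed by 1.59 to 2.58, each from a control mean within the range of the negative controls.

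Connective tissue genes mostly read higher. Of 24 tested genes in the list of fibroblast and matrix markers 21 read higher and 3 lower. Both mutant arrays lay above every control in 13 and below in 1, against 7.61% and 8.24% of all genes. At an unadjusted p below 0.05 there were 7 higher and 1 lower, against 1.66% and 2.11%. Dcn, the small proteoglycan decorin, read 56244, 59353 and 44808 in controls and 83771 and 72498 in mutants, a difference of 0.55 ± 0.20. Bgn, the related biglycan, read 8846, 6194 and 7216 against 11115 and 12955, a difference of 0.71 ± 0.24, with 0.60 and 0.65 from its other probe sets. Timp1, an inhibitor of matrix proteases, differed by 0.64 ± 0.20. Fn1, the matrix glycoprotein fibronectin, went the other way at 15044, 16503 and 19846 against 10516 and 10229, a difference of -0.71. The summed signal of the list ran from 525923 to 643003 in controls and from 709731 to 762136 in mutants, so the groups did not overlap, and the median difference was 0.38, with 0.26 without innervated mutant 1. None passed the threshold.

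Markers of other tissues around the fibre were also read, on fewer genes. All 8 tendon genes read higher, with a median of 0.68 that moved with the arrays, but 0 had an interval within 2-fold. At an unadjusted p below 0.05 there was 1 higher, against 1.66% of all genes. The summed signal of these 8 overlapped, from 50872 to 102211 in controls and from 77855 to 132660 in mutants. Chad, a cartilage and tendon matrix protein, read 2553, 3276 and 1762 in controls and 8018 and 3440 in mutants. That median was 0.36 without innervated mutant 1, 0.40 without innervated control 3 and 1.09 without innervated mutant 2. All 6 adipocyte genes read higher, with a median of 0.80, but only 1 had an interval within 2-fold. At an unadjusted p below 0.05 there was 1 higher, against 1.66% of all genes. The summed signal of these 6 ran from 70439 to 98459 in controls and from 98730 to 116641 in mutants. Their median was 0.60 without innervated mutant 1, 0.61 without innervated control 1 and 1.14 without innervated mutant 2. Of 8 Schwann cell and nerve genes 6 read higher, among them the myelin genes Pmp22 (0.41 ± 0.16) and Mbp (0.44 ± 0.21), beside Gfap on the lower side. Another probe set of Mbp gave -0.82 ± 0.22, and its remaining ones 0.20 to 0.83. The summed signal of the 8 genes was 26980 to 30187 in controls and 35322 to 37578 in mutants. The median of the 8 was 0.25, or 0.16 without innervated control 1. Endothelial and smooth muscle genes centred on 0, with medians of -0.04 and 0.00, and all 12 and 9 of them had an interval within 2-fold. The part that these other tissues play in the differences of single genes was not tested.

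**Figure D3:**
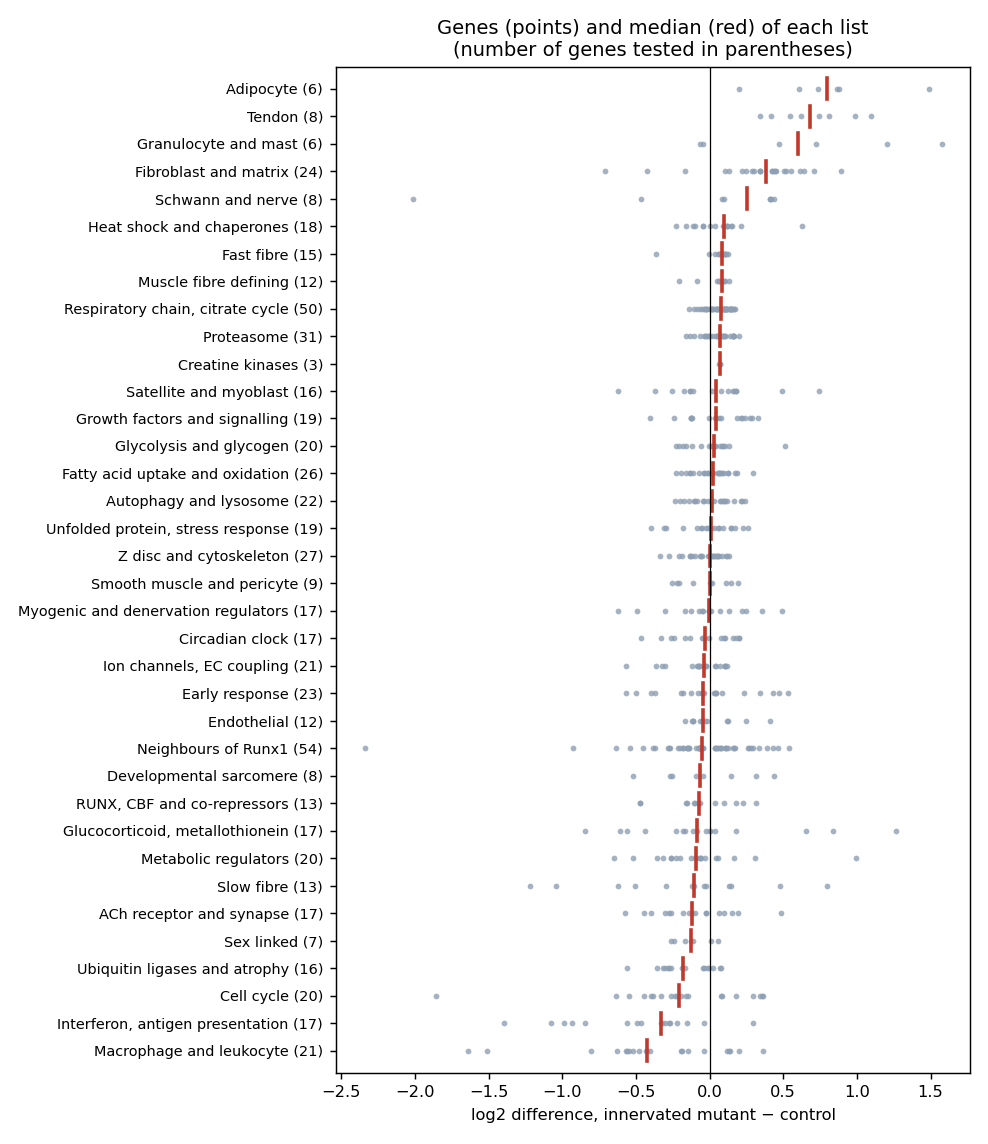
Each row is a gene list with at least 3 tested genes, each point a gene's log2 difference between innervated mutant and control muscle, and the red bar the list's median. Macrophage and leukocyte genes have the lowest median (-0.42) and adipocyte genes the highest (0.80), and lists of the muscle fibre lie near 0.

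The fibre's own programme differed little. The tissue was muscle by its defining genes: all 12 were bright, with an interval within 1.5-fold. Ckm, the creatine kinase whose promoter drives Cre, read 255331, 247118 and 218982 in controls and 237720 and 265266 in mutants, with an interval of -0.34 to 0.47. Of 15 fast-fibre genes 14 had an interval within 1.5-fold, among them Myh4, the fastest myosin heavy chain, at 252093, 235604 and 210516 against 230033 and 260936. The exception was Myh2, the myosin of oxidative fast fibres, which read 177921, 158294 and 184561 in controls but 91809 and 197374 on the mutant arrays. Without innervated mutant 1 its difference went from -0.36 to 0.19. The medians of the fast-fibre and defining lists were 0.08 and 0.08, ran from 0.00 to 0.17 and from -0.01 to 0.15 with 1 innervated array left out, and turned their sign under median scaling.

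The median of the slow-fibre genes varied more between arrays than between genotypes. Myl2, the slow regulatory light chain, read 2113, 1312 and 15854 in controls and 903 and 3227 in mutants. The stretch-responsive genes Csrp3 and Ankrd2 likewise stood highest in innervated control 3, at 86304 and 62407. Only 5 of 13 slow-fibre genes had an interval within 2-fold. At an unadjusted p below 0.05 there were 2 lower and 0 higher, against 2.11% and 1.66% of all genes. Myh7, the slow myosin heavy chain, read 320, 637 and 746 in controls and 452 and 103 in mutants. It differed by -1.22 ± 0.56, with a mutant mean in the range of the negative controls. Tnnt1, the slow troponin T, read 1738, 1224 and 1830 in controls and 1005 and 1025 in mutants, a difference of -0.62 ± 0.28. In denervated muscle the same gene differed by -1.50 ± 0.25 (limma adjusted p = 0.00702). The list median was -0.11, 0.10 without innervated control 3, 0.08 without innervated mutant 1 and -0.22 and -0.16 without innervated control 2 and innervated mutant 2.

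Most lists of structure and metabolism were tightly bounded. All 27 genes of the Z disc and cytoskeleton, all 50 of the respiratory chain and citrate cycle, all 31 of the proteasome, all 26 of fatty acid use and all 22 of autophagy and the lysosome had an interval within 2-fold, with medians of 0.00, 0.08, 0.07, 0.02 and 0.02. For glycolysis and glycogen it was 18 of 20, with a median of 0.03, and for ion channels and excitation-contraction coupling 20 of 21, with a median of -0.04. With 1 innervated array left out the medians of these 7 lists lay between -0.11 and 0.23. Regulators of metabolism were less tightly bounded, 14 of 20, with a median of -0.09 that was -0.19 without innervated mutant 1 and -0.03 without innervated mutant 2. Over all genes the share within 2-fold was 78.8%, but it was 32.4% in the dimmest group of genes and 97.6% in the brightest. These lists were not compared with genes of equal signal, so their shares cannot be told apart from an effect of brightness. Genes of the unfolded protein response had a median of 0.01, and heat shock genes one of 0.09. The latter was 0.32 without innervated mutant 1, -0.14 without innervated mutant 2, -0.10 without innervated control 2 and 0.02 without innervated control 3.

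The neuromuscular junction and the genes that respond to loss of the nerve were of interest because Runx1 belongs to that response. Of 17 acetylcholine receptor and synapse genes 12 read lower and 5 higher, none at an unadjusted p below 0.05 against 3.77% of all genes, with a median of -0.12. Chrna1, the receptor's alpha subunit, read 4297, 2805 and 3375 in controls and 2999 and 3341 in mutants, with an interval of -0.50 to 0.26. Musk, the receptor kinase that organises the synapse, read 1237, 1778 and 930 against 1080 and 1635. Chrng, the embryonic gamma subunit, was at background in both genotypes, at 71 to 74 in controls and 89 and 36 in mutants. Among 17 myogenic and denervation regulators the median was -0.00, or -0.14 to 0.03 with 1 innervated array left out, and Myog, the myogenic factor that denervation induces, read 1512, 1069 and 1170 against 835 and 1647. None of the genes in either list passed the threshold in innervated muscle.

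Genes linked to wasting mostly read lower in the mutant. Of 16 ubiquitin ligase and atrophy genes 13 read lower, with a median of -0.18, or -0.08 without innervated mutant 2. At an unadjusted p below 0.05 there were 1 lower and 0 higher, against 2.11% and 1.66% of all genes. Both mutant arrays lay below every control in 2, against 8.24%. Klf15, a glucocorticoid-induced regulator of amino acid and lipid metabolism, read 10216, 8685 and 9096 in controls and 6645 and 5968 in mutants, a difference of -0.56 ± 0.18. Trim63 and Fbxo32, the ligases MuRF1 and atrogin-1, overlapped between the groups, at -0.28 each. Sesn1, a stress-induced inhibitor of growth signalling from the list of metabolic regulators, read 9139, 7711 and 7945 against 6556 and 4196. It differed by -0.65 ± 0.23, and in denervated muscle by -0.93 ± 0.20 (limma adjusted p = 0.036). Cebpd, another glucocorticoid-responsive factor, differed by -0.61 ± 0.24, and it and Fkbp5 were listed with the glucocorticoid genes. Fkbp5, a standard glucocorticoid target, was low on 1 mutant array only, at 17957, 21195 and 19858 against 19617 and 6067. Over the whole list of 17 glucocorticoid and metallothionein genes 7 read higher and 10 lower. In that list both mutant arrays lay above every control in 2, against 7.61% of all genes, and below in 3, against 8.24%. Its largest difference was upward, 1.26 ± 0.74 for Orm1, an acute phase protein at background in both genotypes. The median of that list was -0.09, or 0.13 without innervated mutant 2 and -0.00 without innervated control 1. Each gene given with a difference here had an adjusted p of 0.998 in innervated muscle by limma.

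Proliferation and immediate early genes gave single genes rather than a trend. Of 20 cell cycle genes 13 read lower, with a median of -0.21, which was 0.04 without innervated mutant 1, -0.10 without innervated control 1 and -0.34 without innervated control 2. Mki67, the proliferation marker Ki-67, read 701, 710 and 474 in controls and 77 and 313 in mutants, a difference of -1.86 ± 0.43 (limma adjusted p = 0.734). It passed the threshold only when innervated mutant 2 was left out, at an adjusted p of 0.0436. Circadian clock genes had a median of -0.03 and early response genes of -0.04. Of 54 tested genes that lie within 5 megabases of Runx1 in the reference gene table, 24 read higher and 30 lower, with a median of -0.05. At an unadjusted p below 0.05 there were 3 lower and 0 higher, against 2.11% and 1.66% of all genes: Brwd1 (-0.45), Dnajc28 (-0.38) and Clic6 (-2.34). The other 4 probe sets of Brwd1 gave -0.15, -0.014, -0.0059 and 0.39, and that of Dnajc28 gave 0.24.

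More genotype differences passed the threshold once the nerve had been cut, with 3 arrays against 3. In denervated muscle 478 probe sets (1.83%) and 267 genes (2.19%) passed the threshold, 211 probe sets higher (0.806%) and 267 lower (1.02%) in the mutant, and the interaction of genotype and denervation passed in 65 probe sets (0.248%) and 32 genes (0.262%). The 65 became 91 without denervated control 3, of which 53 were among the 65. They became 45 with a replicate block, all among the 65, and 10 without a variance trend. They became 16 without innervated mutant 2, 36 without innervated mutant 1 or innervated control 1, and 108 without innervated control 2. Over 26170 probe sets the genotype difference in innervated muscle and that in denervated muscle, which share no array, correlated at r = 0.01 and had the same sign in 51.1%. The median absolute difference over these probe sets was 0.17 in innervated and 0.19 in denervated muscle. For the 478, which were chosen by their denervated difference, that in innervated muscle was 0.15, and 29 (6.07%) had an unadjusted p below 0.05 there against 3.94% of all. An innervated interval within 2-fold was found for 408 of them (85.4%), against 70.6% of all. Both differences of a probe set use 1 shared estimate of its spread, and a small spread helps it pass in denervated muscle. The shares of 6.07% and 85.4% therefore partly reflect how the 478 were chosen, and no conclusion is drawn from them.

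**Figure D4:**
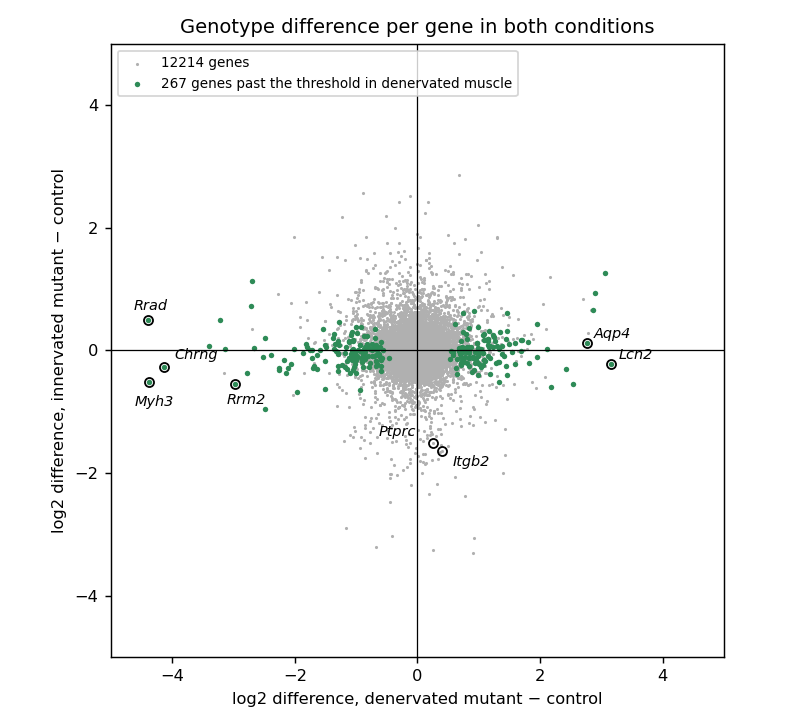
Each grey point is 1 of 12214 genes, with its log2 difference between mutant and control in denervated muscle on the x axis and in innervated muscle on the y axis; green points passed the threshold in denervated muscle. The green points spread along the x axis and stay near 0 on the y axis, while Ptprc and Itgb2 lie low on the y axis near 0 on the x axis.

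Individual genes, chosen after their values were seen, show the contrast. Aif1l, an actin-bundling protein, read 1305, 1064 and 900 in innervated controls and 1060 and 1125 in innervated mutants, a difference of 0.02, and differed by -3.14 in denervated muscle (interaction adjusted p = 0.000118, limma). Myh3, the embryonic myosin heavy chain, differed by -0.52 ± 0.34 and -4.38 ± 0.31 in innervated and denervated muscle, and Chrng by -0.27 and -4.14. Lmod3, a nucleator of thin filaments, differed by 0.01 and -1.74, and Pln, an inhibitor of the sarcoplasmic calcium pump, by 0.21 and -2.48. Of genes higher in the denervated mutant, the water channel gene Aqp4 differed by 0.12 and 2.77, the lipid droplet gene Plin5 by 0.02 and 2.12, and Blnk, an adaptor of B cell signalling, by -0.00 and 1.69. The innervated groups overlapped in each of these probe sets, while further called probe sets of Pln and Aif1l, with differences of 0.56 and -0.61, did not overlap. Under other settings the interaction call of Plin5 was lost in 6 and that of Aqp4 in 4. The calls of Lmod3, Pln and Blnk were lost in 2 each, and those of Aif1l, Myh3 and Chrng in 0.

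In 3 of the 65 probe sets the larger difference was in innervated muscle, namely those of Ptprc, Itgb2 and Ccl9. Ptprc differed by -1.51 ± 0.21 in innervated and 0.25 ± 0.19 in denervated muscle (interaction adjusted p = 0.0259, limma), Itgb2 by -1.64 ± 0.25 and 0.40 ± 0.23 (0.0276), and the second Ccl9 probe set by -1.44 and 0.41 (0.0267). Each of these 3 calls was lost without innervated control 1, without innervated control 3 and without either innervated mutant array, as well as with spike-in centring, without a variance trend and with a replicate block. With the block the adjusted p was 0.0609, 0.0721 and 0.0635. Over all these settings it ran from 0.0547 to 0.146 for Ptprc, from 0.061 to 0.117 for Itgb2 and from 0.0547 to 0.167 for that Ccl9 probe set. Ppara, the receptor that controls fatty acid oxidation, read 7062, 6661 and 8315 in innervated controls and 4696 and 5524 in innervated mutants, a difference of -0.52 ± 0.24, and differed by 1.32 ± 0.21 in denervated muscle (interaction adjusted p = 0.036, limma). That call was likewise lost on leaving out either of those 2 control arrays or either mutant array, at adjusted p of 0.0714 to 0.134.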

How the data were processed

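Total RNA of mouse tibialis anterior was hybridised to 11 arrays in 4 groups taken from the sample titles. Each deposited value is the intensity of a probe set, not log-transformed. Judging by the values, the authors brought every array to a mean of 2500 with 2% trimmed; which software they used is not given in the sources. The number of arrays limits the precision.

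Intensities entered the analysis as log2(value + 16), with no normalization added; fold changes on that scale are understated for dim genes. Probe sets above their array's median on at least 2 of 11 arrays were kept and the 64 array controls left out. The supplied annotation gave 34958 probe sets exactly 1 gene symbol, 932 several, and did not list 9211; probe sets with several name no gene. limma 3.58.1 in R 4.3.3 fitted a mean per group to all 11 arrays (lmFit, eBayes with trend), with Benjamini-Hochberg adjustment over 26170 probe sets. Intervals are 95% limits of the limma difference. SE is the standard error of the fit and SD the spread between arrays of a group. The code was tested on simulated data. Deviations of innervated arrays of equal replicate number from their group means correlated at -0.16 and -0.18 between the genotypes, so the numbers gave no sign of a pairing in the main comparison. They correlated at 0.11, 0.22 and 0.30 between innervated and denervated controls and at 0.03 and 0.05 between innervated and denervated mutants. Arrays of unequal number were not compared, so whether the numbers pair the controls was not tested. Such a pairing would bear on the interaction. Array properties were compared with an exact two-sided permutation test over 10 splits.

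Named genes were the 10 of smallest p in each direction whose groups did not overlap, up to 3 genes of smallest p from each of 37 lists, and genes named as chosen afterwards; genes described within a list serve as its examples. The lists held 742 genes, 622 of them tested; the 37 include the neighbours of Runx1. The members and the lists were chosen with earlier results of these data known. For denervated control 3 the title says 3 days and the note on treatment 5. This touches the shared spread, the denervated values and every interaction result. The closing section gives the effect of 18 other settings and of 1 more chosen after seeing the data: arrays entered, pseudocount, filter, scaling, variance trend, array weights, replicate block, a 5'-to-3' covariate and each innervated array left out.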

Additional observations from a re-analysis of the deposited data

Results flagged for a closer look

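For 6 named genes the genotype difference was not the same in innervated and denervated muscle, by the interaction term of the limma fit (adjusted p below 0.05). The value is the log2 difference between mutant and control in innervated muscle minus that in denervated muscle. It was -1.76 for Ptprc and -2.04 for Itgb2, leukocyte genes whose larger difference was in innervated muscle, and -1.84 for Ppara, where the 2 differences had opposite signs. It was 3.86 for Myh3, 2.42 for the ribonucleotide reductase subunit Rrm2 and 2.41 for Myh2, where the larger difference was in denervated muscle. The calls of Myh3 and Rrm2 held under all alternatives tried. That of Myh2 was lost without innervated control 1, innervated control 3, innervated mutant 2 or denervated control 3, without a variance trend and with a replicate block, at limma adjusted p of 0.0618 to 0.153. That of Ppara was also lost with quantile normalization, with either spike-in centring and without a variance trend, and its lost adjusted p ran from 0.0511 to 0.134.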

How the results depend on the processing

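Signal limits the precision: the interval lay within 2-fold for 32.4% of genes in the dimmest of 4 equal groups and 97.6% in the brightest. The count of 0 probe sets past the threshold stayed 0 in all settings but 3. Leaving out 1 innervated array gave 0 to 12: 12 without innervated mutant 1 (3 higher, 9 lower), 3 lower without innervated mutant 2 and 0 without each control. Without a variance trend it was 3, Fancg and 2 probe sets with no single symbol, all lower. The mutant left alone is assumed to vary like the other groups, and the 15 probe sets called without a mutant array had main adjusted p of 0.734 or more. Probe sets at an unadjusted p below 0.05 numbered 1030, from 608 with only the 5 innervated arrays to 2107 without a filter, with 642 under spike-in centring, 619 with the cre spike-in left out (a setting chosen after seeing the data), 1890 without innervated control 2 and 1765 without innervated mutant 1. Genes with an interval within 2-fold numbered 7586 to 10443.

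With a replicate block 0 probe sets passed, 880 had an unadjusted p below 0.05, and the block changed no call of innervated muscle, while it ended the interaction calls of Ptprc, Itgb2, Myh2 and a Ccl9 probe set.

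Of 2275 values of named genes under other settings, 25 had the other sign, and of 97 other probe sets 34 did; the cause was not tested. Median scaling gave -0.0020 for Mylpf, -0.025 for Casq1, -0.022 for Pvalb, -0.056 for Ckmt2, -0.063 for Ckm and -0.060 for Ckb, and it turned the sign of 14 of the 20 list medians above 0. Ckm was -0.019 with the 5'-to-3' covariate and -0.0090 after quantile normalization, and Ckb -0.053 with array weights. With 1 array left out, differences crossed 0 for Myh2 (-0.92 to 0.19), Myl2 (-1.95 to 0.038), Pfkfb3 (-0.031 to 1.06), Ndufb9 (-0.024 to 0.34), Ucp3 (-0.029 to 0.62), Map1lc3b (-0.0027 to 0.44), Bag3 (-0.35 to 0.038), Igf2 (-0.013 to 0.52), Id3 (-0.020 to 0.58), Ckmt2 (-0.065 to 0.21), Ckm (-0.014 to 0.14), Ckb (-0.19 to 0.34), Emcn (-0.034 to 0.52) and Tnfrsf12a (-0.053 to 1.03). Other probe sets gave -0.12 for Cdk5r1, -0.90 for Mta3, 0.041 for Hectd3, 0.031 and 0.23 for Tle4, 0.16 and 0.96 for Tle3, -0.22 for Tle1, 0.20 for Nes, 0.53 for Des, 0.019 for Slc25a20, 0.21 for Nbr1, -0.36 for Map1lc3b, 0.098 for Ulk1, -0.65 and -0.017 for Psmd11, 0.25 for Atf6, 0.026 for Hsph1, 0.35 for Per2, 0.15, 0.022 and 0.11 for Clock, 0.070 for Smad7, 0.045 for Eif2s3y, 0.73 and 8.7e-05 for Kdm5c, 0.39 for Eif2s3x, 0.59 for Flt1, 0.20 for Pdgfrb, -0.82 for Mbp, 0.072 for Rrm2, -0.21 for Mcm3, 0.39 for Brwd1 and 0.24 for Dnajc28.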
